A study of Homo sapiens with 6 samples.

Results

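Genes of ribosome biogenesis and of the RNA exosome were compared in the human colon carcinoma line Caco-2 on 6 single-channel Affymetrix arrays. They were chosen by symbol: EXOSC, UTP, NOP, RRP or NOL followed by a number, symbols that begin with POLR1, and BOP1, PES1, WDR12, FBL, DKC1, NCL, NPM1 and RRS1. A probe set with 1 symbol was found for 42 of these genes, among 14884 named genes on the array, and 40 of the 42 are protein-coding. The 3 groups of 2 arrays differed in the hairpin, which was a scramble shRNA in the controls and either of the FAM46A hairpins, FAM46A-shRNA#2 and FAM46A-shRNA#4, in the others, each delivered by lentivirus to subconfluent cells that were sampled 17 days later. The scramble cells were therefore infected too, and all groups share 1 parental line. The product of FAM46A belongs to the non-canonical poly(A) polymerases, and the comparisons address which transcripts differ after its depletion. FAM46A itself was not analysed here, so the groups follow the labels alone. A further 23 protein-coding genes meet the symbol rule and were not analysed here, among them PES1, DKC1, NPM1 and 6 RNA polymerase I subunits. The labels call the arrays biological replicates and do not say what separates them, so the p-values measure the spread between these samples, which may be technical.

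Ribosome assembly starts in the nucleolus, where RNA polymerase I transcribes the rRNA precursor and the small subunit processome, built around the U3 snoRNA, folds and cleaves it. Box C/D and box H/ACA particles guide methylation and pseudouridylation of the rRNA, and further factors assemble and export each subunit. The RNA exosome is a barrel-shaped complex that trims rRNA precursors from the 3′ end and degrades other nuclear and cytoplasmic RNA. In the intestinal epithelium these genes are most active in dividing crypt cells, and many are textbook targets of the transcription factor MYC, which binds the E-box CACGTG with its partner MAX.

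Promoters were available from RefSeq (GRCh38.p14) for 33 of the 42 genes, covering 250 bases before and 50 bases after the annotated start. The letters CACGTG, which read the same on both strands, occurred in 9 of the 33 (27.3%), against 1097 of 9707 protein-coding genes on the array with a promoter (11.3%). Within the 50 bases after the start, a window chosen after the positions were seen, 7 of the 33 genes (21.2%) and 126 of the 9707 (1.30%) held it. These sites are shown because FBL, NOP14 and UTP25, described below with like changes in both hairpins, hold one, as does UTP18, which differed between them. Each line gives 12 bases on either side of the E-box, 5′ to 3′ along the gene, with the E-box in capitals, and NOP2 is cut at the end of the promoter window.
FBL: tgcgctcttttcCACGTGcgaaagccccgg
UTP25: agtcagcgagccCACGTGcttgtgttgact
NOP14: tccgcggcccggCACGTGtcttagggtagc
NOL6: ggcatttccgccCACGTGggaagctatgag
EXOSC5: caactgcagccgCACGTGggctcggcgcga
NOP2: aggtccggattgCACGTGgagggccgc
UTP18: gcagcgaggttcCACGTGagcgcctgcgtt
NOL8: gctccgttgggaCACGTGaccagaagttag
NOP10: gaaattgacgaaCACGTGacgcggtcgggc
Counted from 1 at the start, the E-box began at base 7 in FBL (chr19:39846356-39846385, minus strand), base 15 in UTP25 (chr1:209827974-209828003, plus strand) and base 16 in NOP14 (chr4:2963374-2963403, minus strand). It began at base 14 in NOL6 (chr9:33473894-33473923, minus strand), base 15 in EXOSC5 (chr19:41397328-41397357, minus strand), base 36 in NOP2 (chr12:6568242-6568268, minus strand) and base 5 in UTP18 (chr17:51260538-51260567, plus strand). In NOL8 (chr9:92325342-92325371, minus strand) and NOP10 (chr15:34343130-34343159, minus strand) it lay just before the start, at bases -9 and -11. EXOSC5, UTP18 and NOP10 held a further E-box upstream, at bases -89, -89 and -170. A match describes the letters and does not show that a factor binds there.

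Other motifs were searched on both strands of the same windows. The GC box GGGCGG was found in 22 of the 33 genes (66.7%) and in 68.9% of the 9707. The ETS letters CCGGAAG were found in 8 (24.2%) against 17.9%, and CCAAT in 12 (36.4%) against 42.2%. The NRF1 core GCATGCG was found in 3 (9.09%) against 6.48%, and the YY1 core ATGGCGG in 5 (15.2%) against 9.86%. Sites of different motifs in a window may share bases.

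Most of the genes were higher in the hairpin arrays. Each value below is a log2 value relative to the median of that gene over the 6 arrays, so it shows differences between arrays and not the level of a gene. The base of the logarithm is assumed, and the number of arrays limits the precision. Changes are log2 differences ± their standard error (SE), from limma with 2 arrays in each group, and rose or fell means a Benjamini-Hochberg adjusted p under 0.05 over all 14884 genes. When the hairpins were averaged and set against scramble, 27 of the 42 genes rose, where 14.8% of all genes were called higher, and only NOL4L fell, where 10.6% were called lower. The median change of the 42 genes was 0.32, against 0.0028 over all genes. Of all 14884 genes 11916 are protein-coding, and genes not expressed in these cells could not be left out of the shares. All changes were under 2-fold, and the largest was that of FBL (1.69-fold). The 4 hairpin arrays lay above both scramble arrays for 27 of the 42 genes, against 19.5% of all genes.

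**Figure D1:**
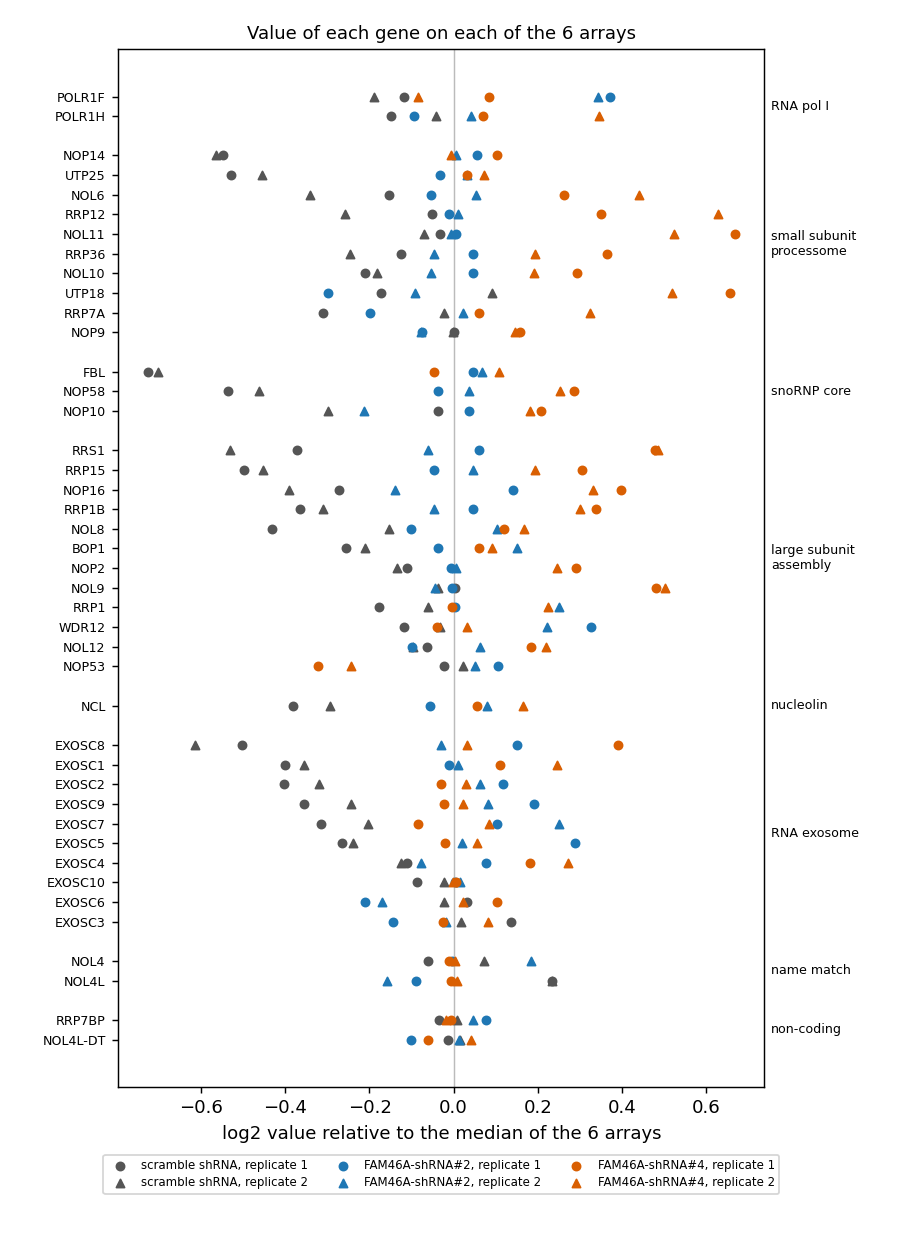
Log2 value of each of the 42 genes on each array, relative to the median of the 6 arrays, grouped by role and ordered within a role by the mean change. Circles are replicate 1 and triangles replicate 2. Grey scramble points lie to the left of all hairpin points for 27 genes, and shRNA#4 points lie furthest right for most genes of the small subunit processome.

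Fibrillarin (FBL), the rRNA 2′-O-methyltransferase of box C/D particles, changed the most. It stood at -0.73 and -0.70 on the scramble arrays, 0.047 and 0.067 with shRNA#2, and -0.047 and 0.11 with shRNA#4. The scramble arrays were low, the 4 hairpin arrays lay close together, and scramble did not overlap either hairpin. FBL rose by 0.77 ± 0.064 with shRNA#2 and by 0.75 ± 0.064 with shRNA#4, and the hairpins differed by 0.026 ± 0.064 (adjusted p 0.878, limma). NOP58, a core protein of the same particles, stood at -0.54 and -0.46 on the scramble arrays, -0.036 and 0.036 with shRNA#2, and 0.29 and 0.25 with shRNA#4. The 3 groups formed separate steps, with scramble lowest and shRNA#4 highest. NOP58 rose by 0.50 ± 0.055 and 0.77 ± 0.055 with the respective hairpins, and its difference between them, -0.27 ± 0.055, passed the test (adjusted p 0.0242, limma). NOP10, the small core protein of box H/ACA particles, stood at -0.037 and -0.30 on the scramble arrays, 0.037 and -0.21 with shRNA#2, and 0.21 and 0.18 with shRNA#4. Its scramble and shRNA#2 arrays overlapped, and its change of 0.22 ± 0.098 in the mean of both hairpins did not pass (adjusted p 0.168, limma). With shRNA#4 its change of 0.36 ± 0.11 passed with the replicate number as a block, with protein-coding genes alone or without scramble replicate 1. Their partners NOP56 and DKC1 were not analysed here.

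Of the RNA polymerase I subunits, 2 of 8 were measured. POLR1F, a subunit of the stalk of the enzyme, stood at -0.12 and -0.19 on the scramble arrays, 0.37 and 0.34 with shRNA#2, and 0.085 and -0.085 with shRNA#4. The shRNA#2 arrays were above all others. POLR1F rose by 0.51 ± 0.070 with shRNA#2, had a change of 0.15 ± 0.070 with shRNA#4 (adjusted p 0.18, limma), and differed between the hairpins by 0.36 ± 0.070. POLR1H, the small subunit involved in RNA cleavage by the enzyme, stood at -0.15 and -0.041 on the scramble arrays, -0.094 and 0.041 with shRNA#2, and 0.071 and 0.34 with shRNA#4. Its shRNA#4 arrays lay far apart. It had a mean change of 0.19 ± 0.089 that did not pass (adjusted p 0.203, limma). With shRNA#4 its change of 0.30 ± 0.10 passed with the replicate block or without shRNA#4 replicate 1.

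Of 21 listed genes of the small subunit processome, 10 were measured, and 7 of them rose in the mean of both hairpins. Their median change was 0.17 with shRNA#2 and 0.57 with shRNA#4. With shRNA#2 only NOP14 and UTP25 rose, where 12.1% of all genes were called higher. With shRNA#4 8 of the 10 rose, where 15.7% were called higher. The direct test between the hairpins called 5 of the 10 lower with shRNA#2, where 8.63% of all genes were called, and all 10 had the lower value with shRNA#2.

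NOP14, which joins the early processome, stood at -0.55 and -0.56 on the scramble arrays, 0.056 and 0.0061 with shRNA#2, and 0.10 and -0.0061 with shRNA#4. Both scramble arrays were low and the hairpin arrays lay together. It rose by 0.59 ± 0.057 with shRNA#2 and by 0.60 ± 0.057 with shRNA#4. UTP25, another processome component, stood at -0.53 and -0.46 on the scramble arrays, -0.031 and 0.032 with shRNA#2, and 0.031 and 0.071 with shRNA#4, the same pattern. It rose by 0.49 ± 0.054 and 0.54 ± 0.054. The difference between the hairpins was -0.017 ± 0.057 for NOP14 and -0.051 ± 0.054 for UTP25, and neither passed the test.

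A different pattern was seen in UTP18, a protein of the UTP-B subcomplex. It stood at -0.17 and 0.091 on the scramble arrays, -0.30 and -0.091 with shRNA#2, and 0.66 and 0.52 with shRNA#4. Scramble and shRNA#2 arrays overlapped, and both shRNA#4 arrays were far above them. UTP18 rose by 0.63 ± 0.11 with shRNA#4 and had a change of -0.15 ± 0.11 with shRNA#2, and its difference of -0.78 ± 0.11 was the largest between the hairpins among the 42 genes (adjusted p 0.00893, limma). NOL11, a processome component linked to rRNA transcription, stood at -0.031 and -0.070 on the scramble arrays, 0.0056 and -0.0056 with shRNA#2, and 0.67 and 0.52 with shRNA#4. The shRNA#2 arrays were barely above scramble and the shRNA#4 arrays well above. NOL11 rose by 0.65 ± 0.062 with shRNA#4, had a change of 0.051 ± 0.062 with shRNA#2, and differed between the hairpins by -0.60 ± 0.062 (adjusted p 0.00365, limma). RRP12, which acts in the maturation and export of the small subunit, stood at -0.051 and -0.26 on the scramble arrays, -0.011 and 0.011 with shRNA#2, and 0.35 and 0.63 with shRNA#4. It rose by 0.64 ± 0.11 with shRNA#4 and differed between the hairpins by -0.49 ± 0.11, although its replicates were spread more widely than those of NOL11.

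NOL6, the processome protein that binds RRP7A, stood at -0.15 and -0.34 on the scramble arrays, -0.053 and 0.053 with shRNA#2, and 0.26 and 0.44 with shRNA#4 and rose by 0.42 ± 0.080 in the mean of both hairpins. RRP36 rose by 0.33 ± 0.069, and RRP36 and NOL6 lay in separate steps by group. NOL10 rose by 0.32 ± 0.053, but its 2 probe sets differed in size, at 0.56 ± 0.063 and 0.071 ± 0.054, and the second alone did not pass. RRP7A had a mean change of 0.22 ± 0.12 with widely spread replicates and did not pass without the replicate block, with which it did. NOP9, a repeat protein that binds rRNA precursors, stood at 0.0011 and -0.0011 on the scramble arrays, -0.076 and -0.078 with shRNA#2 and 0.16 and 0.15 with shRNA#4. Neither hairpin passed against scramble, while the difference between hairpins (-0.23 ± 0.045) did.

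Of 14 listed genes of large subunit assembly, 12 were measured and 9 rose in the mean of both hairpins. With shRNA#2 5 rose, where 12.1% of all genes were called higher. With the replicate number as a block 8 did, which added NOL8, NOP16 and RRP1. The block also raised the count over all 14884 genes, from 1800 to 2006. With shRNA#4 9 rose, where 15.7% of all genes were called higher, and NOP53 fell, where 10.4% were called lower. RRS1, which helps to load the 5S particle onto the large subunit, stood at -0.37 and -0.53 on the scramble arrays, 0.060 and -0.060 with shRNA#2, and 0.48 and 0.49 with shRNA#4. The groups formed 3 separate steps. RRS1 rose by 0.45 ± 0.073 with shRNA#2 and by 0.93 ± 0.073 (1.91-fold) with shRNA#4, the largest rise with either hairpin among the 42 genes, and the hairpins differed by -0.48 ± 0.073 (adjusted p 0.0103, limma). RRP15, another assembly factor, stood at -0.50 and -0.45 on the scramble arrays, -0.046 and 0.046 with shRNA#2, and 0.31 and 0.19 with shRNA#4. It rose by 0.48 ± 0.062 and 0.73 ± 0.062 with the respective hairpins. Its difference between them, -0.25 ± 0.062, passed at an adjusted p of 0.0465 (limma). It no longer passed with the replicate block, with quantile normalization, with a robust prior, with only the arrays compared, or without any 1 of the 6 arrays.

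NOP16 stood at -0.27 and -0.39 on the scramble arrays, 0.14 and -0.14 with shRNA#2, and 0.40 and 0.33 with shRNA#4. It rose by 0.70 ± 0.10 with shRNA#4, and its change of 0.33 ± 0.10 with shRNA#2 passed only with the replicate block, with protein-coding genes alone or without shRNA#2 replicate 2. Its shRNA#2 arrays lay far apart. RRP1B rose by 0.34 ± 0.055 and 0.66 ± 0.055, and the hairpins differed by -0.32 ± 0.055. Its paralog RRP1 did not pass for the mean of both hairpins (0.24 ± 0.096) except with the replicate block. NOP2, a methyltransferase of 28S rRNA, rose by 0.39 ± 0.047 with shRNA#4 and had a change of 0.12 ± 0.047 with shRNA#2, a difference of -0.27 ± 0.047 that passed. NOL8 rose by 0.36 ± 0.094 in the mean of both hairpins. NOL12, whose yeast relative is a 5′ exonuclease, rose by 0.28 ± 0.066 with shRNA#4 and did not pass with shRNA#2 (0.063 ± 0.066), and the difference between the hairpins did not pass (adjusted p 0.0817, limma).

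BOP1 and WDR12, which form a complex with PES1 that large subunit assembly requires, did not follow the same pattern. BOP1 stood at -0.26 and -0.21 on the scramble arrays, -0.037 and 0.15 with shRNA#2, and 0.062 and 0.090 with shRNA#4, with both scramble arrays below the others. It rose by 0.29 ± 0.072 and 0.31 ± 0.072, and its 2 probe sets gave mean changes of 0.40 ± 0.080 and 0.20 ± 0.056, of which the second did not pass (adjusted p 0.0531, limma). Quantile normalization ended the call of BOP1 with each hairpin. WDR12 stood at -0.12 and -0.033 on the scramble arrays, 0.33 and 0.22 with shRNA#2, and -0.039 and 0.033 with shRNA#4. Only the shRNA#2 arrays stood clear of the scramble arrays. WDR12 rose by 0.35 ± 0.063 with shRNA#2 and had a change of 0.073 ± 0.063 with shRNA#4, and the difference of 0.28 ± 0.063 passed (adjusted p 0.0339, limma). PES1 was not analysed here.

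NOL9, the polynucleotide kinase that acts on an internal spacer of the rRNA precursor, stood at 0.0039 and -0.038 on the scramble arrays, -0.0039 and -0.044 with shRNA#2, and 0.48 and 0.50 with shRNA#4. The shRNA#2 and scramble arrays overlapped, and the shRNA#4 arrays were well above and close together. NOL9 rose by 0.51 ± 0.048 with shRNA#4 and had a change of -0.0068 ± 0.048 with shRNA#2, and the hairpins differed by -0.52 ± 0.048 (adjusted p 0.00293, limma). NOP53, which links late large subunit particles to the exosome, went the other way. It stood at -0.023 and 0.023 on the scramble arrays, 0.11 and 0.051 with shRNA#2, and -0.32 and -0.24 with shRNA#4. It fell by 0.28 ± 0.054 with shRNA#4, and its difference between the hairpins was 0.36 ± 0.054, where 6.64% of all genes were called higher with shRNA#2. Nucleolin (NCL), an abundant RNA-binding protein of the nucleolus, stood at -0.38 and -0.29 on the scramble arrays, -0.056 and 0.080 with shRNA#2, and 0.056 and 0.17 with shRNA#4. Both scramble arrays were below all hairpin arrays, and NCL rose by 0.35 ± 0.072 and 0.45 ± 0.072. NPM1, the other abundant nucleolar protein of the list, was not analysed here.

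**Figure D2:**
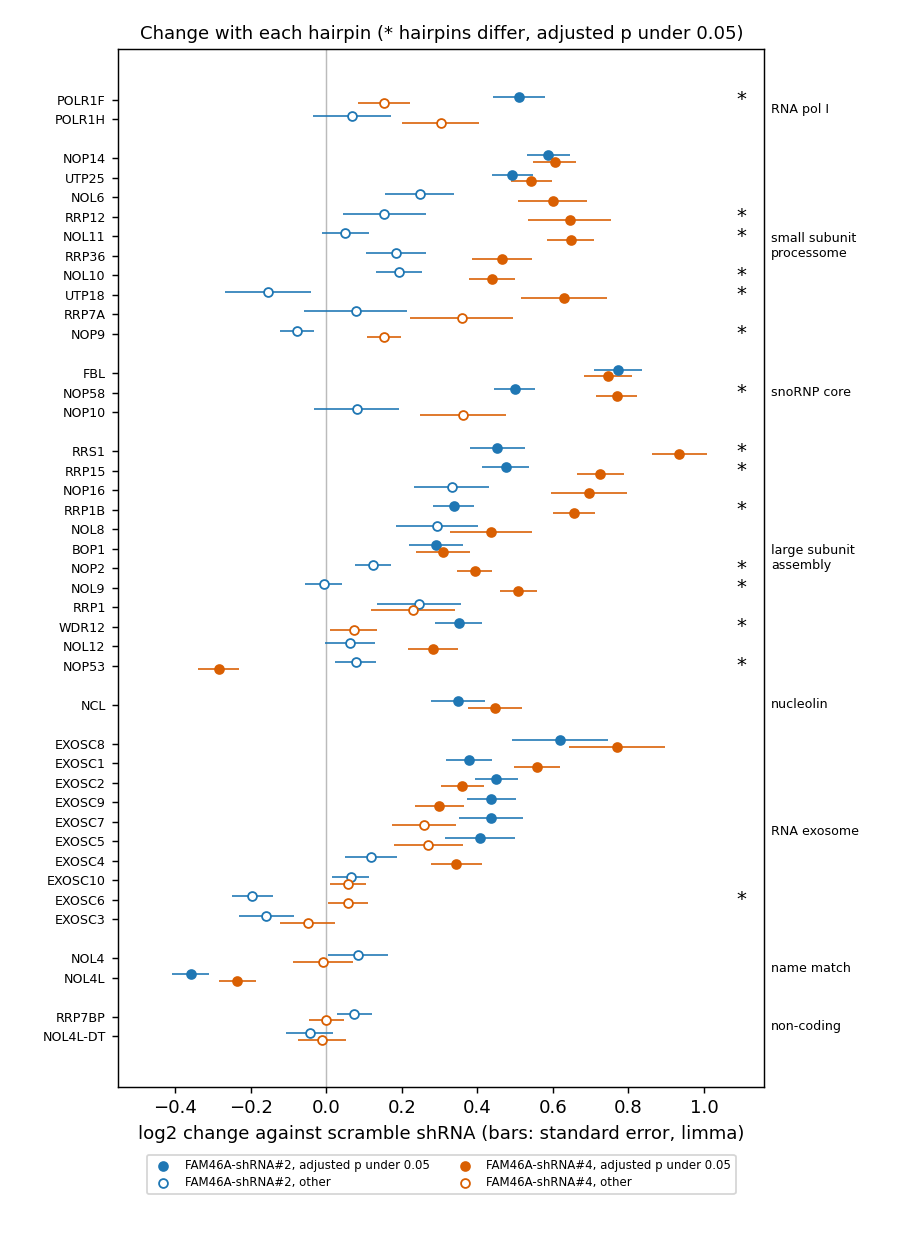
Log2 change of each gene with shRNA#2 (blue) and shRNA#4 (orange) against scramble, with the SE of the limma fit as bars, filled where the adjusted p was under 0.05 and starred where the hairpins differed at that threshold. Blue and orange points lie close together for FBL, NOP14 and UTP25 and lie apart for UTP18, NOL11 and NOL9, and NOP53 is the only large subunit gene below 0 with shRNA#4.

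All 10 core genes of the RNA exosome were measured, and 7 rose in the mean of both hairpins. The median change was 0.39 with shRNA#2 and 0.29 with shRNA#4. With shRNA#2 6 rose, where 12.1% of all genes were called higher, and with shRNA#4 5 did, where 15.7% were. The test between the hairpins called 1 of the 10, EXOSC6, near the 15.3% of all genes. EXOSC8, a subunit of the ring that forms the barrel, stood at -0.50 and -0.62 on the scramble arrays, 0.15 and -0.031 with shRNA#2, and 0.39 and 0.031 with shRNA#4. Both scramble arrays were low, while the shRNA#4 arrays were far apart. It rose by 0.62 ± 0.13 and 0.77 ± 0.13. EXOSC1 and EXOSC2 belong to the cap that RNA passes through. EXOSC1 stood at -0.40 and -0.36 on the scramble arrays, -0.011 and 0.011 with shRNA#2, and 0.11 and 0.25 with shRNA#4, and rose by 0.38 ± 0.061 and 0.56 ± 0.061. EXOSC2 stood at -0.40 and -0.32 on the scramble arrays, 0.12 and 0.062 with shRNA#2, and -0.031 and 0.031 with shRNA#4, and rose by 0.45 ± 0.056 and 0.36 ± 0.056. In both genes the scramble arrays were below all others.

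The other ring subunits were mixed. EXOSC9 rose by 0.44 ± 0.064 and 0.30 ± 0.064 with the respective hairpins. EXOSC7 and EXOSC5 rose with shRNA#2, by 0.44 ± 0.084 and 0.41 ± 0.092, and their changes of 0.26 ± 0.084 and 0.27 ± 0.092 with shRNA#4 did not pass, although EXOSC7 did with the replicate block and EXOSC5 did when only the arrays compared were fitted or without either shRNA#2 array. EXOSC4 rose with shRNA#4 by 0.34 ± 0.068 and had a change of 0.12 ± 0.068 with shRNA#2. EXOSC6 stood at 0.033 and -0.023 on the scramble arrays, -0.21 and -0.17 with shRNA#2, and 0.10 and 0.023 with shRNA#4. Its shRNA#2 arrays were the lowest, its change of -0.19 ± 0.054 with shRNA#2 just missed the threshold (adjusted p 0.0503, limma), and the difference between hairpins was -0.25 ± 0.054. The third cap subunit, EXOSC3, had a mean change of -0.10 ± 0.064 and did not pass. EXOSC10, the nuclear 3′ exonuclease bound to the barrel, stood at -0.087 and -0.024 on the scramble arrays, 0.0027 and 0.016 with shRNA#2, and 0.0060 and -0.00080 with shRNA#4. It had a mean change of 0.061 ± 0.042 (adjusted p 0.381, limma), and its 2 probe sets lay on opposite sides of 0, at -0.0095 ± 0.043 and 0.13 ± 0.054.

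The remaining 4 genes share only the name pattern. NOL4L, a nuclear protein with no established part in ribosome assembly, stood at 0.23 and 0.23 on the scramble arrays, -0.089 and -0.16 with shRNA#2, and -0.0069 and 0.0069 with shRNA#4. Its scramble arrays were above all others, and it fell by 0.36 ± 0.049 with shRNA#2, where 9.54% of all genes were called lower, and by 0.23 ± 0.049 with shRNA#4. NOL4, its paralog, stood at -0.062 and 0.071 on the scramble arrays, -0.0041 and 0.18 with shRNA#2, and -0.012 and 0.0041 with shRNA#4, and had a mean change of 0.038 ± 0.069. The pseudogene RRP7BP and the divergent transcript NOL4L-DT had mean changes of 0.038 ± 0.041 and -0.027 ± 0.055. None of these 3 passed in any of the 4 comparisons (limma), and none had an unadjusted p under 0.05. Without these 4 genes, 27 of 38 rose in the mean of both hairpins, and the median change was 0.34.

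Across the 42 genes, 13 rose with each hairpin separately, where 7.79% of all genes did, and NOL4L fell with each, where 5.95% did. A further 12 rose with shRNA#4 and did not pass with shRNA#2, as did 1103 of all 14884 genes. For 6 of the 12 the difference between the hairpins passed as well, as for 567 of the 1103. The reverse held for 4 genes, and for 610 of all genes. The difference passed for 2 of the 4, WDR12 and POLR1F, and for 314 of the 610. Between the hairpins 12 genes were lower with shRNA#2, where 8.63% of all genes were. Only 3 (7.14%) were higher, near the 6.64% of all genes. The lower value was with shRNA#2 in 30 of the 42 genes, and the median difference was -0.16 against -0.0089 over all genes. Both hairpins were compared with the same 2 scramble arrays, so their changes against scramble share that error, while the difference between them does not use those arrays.

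With 2 arrays per group, a fit without 1 array has less data to estimate the spread, so a call can end while the change hardly moves. The change of BOP1 with shRNA#2 was 0.29 on all arrays and without either shRNA#4 array. That of NOL4L with shRNA#4 was -0.23 on all arrays and without scramble replicate 1. A call lost below therefore does not show that the array left out carried it. Of the 27 rises in the mean of both hairpins, 15 passed without any 1 of the 6 arrays, FBL, NOP58, NOP14, UTP25, RRS1, RRP15, NCL, NOL9, NOL11, EXOSC1, EXOSC2 and EXOSC8 among them. The call of WDR12 ended without either scramble array, without shRNA#2 replicate 1 and without either shRNA#4 array, and that of BOP1 without either scramble array. POLR1F, NOP16, NOL6 and RRP36 lost theirs without scramble replicate 2, and NOL10 and EXOSC7 without scramble replicate 1. RRP12 and RRP36 lost theirs without shRNA#2 replicate 1, and RRP12 also without scramble replicate 2 or shRNA#2 replicate 2. NOL8 lost its call without scramble replicate 1, shRNA#2 replicate 2 or either shRNA#4 array, EXOSC5 without either scramble or either shRNA#4 array, and EXOSC4 without either scramble array, shRNA#2 replicate 1 or shRNA#4 replicate 2.

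For the single hairpins, 8 of the 17 rises with shRNA#2 and 19 of the 25 with shRNA#4 passed without any 1 array. With shRNA#2 RRS1, RRP1B, WDR12, EXOSC5 and EXOSC8 lost the call without shRNA#2 replicate 1, and BOP1, NCL, EXOSC1 and EXOSC7 without shRNA#2 replicate 2. BOP1, EXOSC5 and EXOSC8 also lost it without either scramble array, NCL, WDR12 and EXOSC7 without scramble replicate 1, and BOP1 without either shRNA#4 array. With shRNA#4 UTP18 lost its call without shRNA#4 replicate 1, and BOP1 and NOL12 without either scramble or either shRNA#4 array. EXOSC9 and NOL8 lost it without scramble replicate 1 or either shRNA#4 array, and EXOSC4 without either scramble array or shRNA#4 replicate 2. The falls with shRNA#4 ended for NOP53 without scramble replicate 2 or shRNA#4 replicate 1, and for NOL4L without either scramble or either shRNA#4 array. Between the hairpins only NOL9 and NOL11 passed without any 1 array, and the count lower with shRNA#2 was 3 without shRNA#2 replicate 2 or shRNA#4 replicate 2, 4 without shRNA#2 replicate 1, 5 without shRNA#4 replicate 1 and 11 without either scramble array. The count higher with shRNA#2 was 2 without shRNA#4 replicate 1, 1 without shRNA#2 replicate 2 or shRNA#4 replicate 2, and 0 without shRNA#2 replicate 1 (limma, with 3 genes at an unadjusted p under 0.05 on all arrays).

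Genes of the same pathway outside the 42 were described from lists chosen by role. The choice was made with earlier results of these data known, so the lists are not independent of them. Of 26 further small subunit factors measured, 17 rose in the mean of both hairpins, where 14.8% of all genes were called higher, with a median change of 0.35. The largest were PNO1 (0.90 ± 0.12) and NOB1 (0.75 ± 0.058), which act at the last cleavage of 18S rRNA, and the processome protein WDR43 (0.76 ± 0.041). Of 30 large subunit factors 20 rose and 2 fell (EFL1 and SURF6), with a median of 0.45. Among all genes 10.6% were called lower. With shRNA#2 18 rose and 5 fell, where 12.1% and 9.54% of all genes were called higher and lower. With shRNA#4 23 rose and 0 fell, where 15.7% and 10.4% were. SBDS fell by 0.30 ± 0.081 with shRNA#2 and rose by 0.38 ± 0.081 with shRNA#4. Its mean change was 0.041 ± 0.070. RPF2, the partner of RRS1, rose by 0.60 ± 0.072 with shRNA#2 and 1.14 ± 0.072 with shRNA#4, a difference of -0.54 ± 0.072 that passed. PAK1IP1 and URB2 rose by 0.81 ± 0.072 and 0.71 ± 0.045 in the mean. Of 12 factors of small nucleolar particles 8 rose, with a median of 0.39, led by NOLC1, a nucleolar chaperone of these particles, which rose by 0.90 ± 0.049. NUFIP1 and RUVBL2, which assemble box C/D particles, rose by 0.54 ± 0.048 and 0.51 ± 0.14. Of these 3 lists, 8 of 26, 19 of 30 and 5 of 12 genes were lower with shRNA#2 than with shRNA#4 by the direct test, where 8.63% of all genes were.

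Of 14 nucleases and cofactors of the exosome 7 rose and 2 fell, with a median of 0.15. Among all genes 14.8% were called higher and 10.6% lower. MTREX, the helicase that feeds RNA to the nuclear exosome, rose by 0.48 ± 0.043, the 5′ exonuclease XRN2 by 0.47 ± 0.050 and HBS1L, which acts on stalled ribosomes, by 0.42 ± 0.048. SKIC2 and NRDE2 fell by 0.18 ± 0.044 and 0.22 ± 0.044. SKIC3 fell by 0.30 ± 0.071 with shRNA#4 and had a change of 0.21 ± 0.071 with shRNA#2 that did not pass. Its difference between the hairpins, 0.51 ± 0.071, passed. Of 10 genes of RNA polymerase I transcription and of the MYC and MAX network, 3 rose (MYC, RRN3 and TOP1) and 2 fell (MXD1 and MXD4). The median was 0.042, and it mixes genes of opposed roles, as the list joins MYC with MXD genes. MXD1 fell by 0.23 ± 0.060. The shares over all genes were again 14.8% higher and 10.6% lower. MYC stood at -0.65 and -0.82 on the scramble arrays, -0.048 and 0.18 with shRNA#2, and 0.048 and 0.11 with shRNA#4. Both scramble arrays were far below the hairpin arrays, and MYC rose by 0.80 ± 0.094 with shRNA#2 and by 0.82 ± 0.094 with shRNA#4. MAX itself fell by 0.28 ± 0.056 with shRNA#2 and had a change of 0.15 ± 0.056 with shRNA#4 that did not pass. Its difference between the hairpins, -0.43 ± 0.056, passed. MXD4, which competes with MYC for MAX, fell by 0.51 ± 0.083 in the mean. RRN3, the initiation factor of RNA polymerase I, rose by 0.55 ± 0.049 with shRNA#4 and had a change of 0.11 ± 0.049 with shRNA#2, a difference of -0.44 ± 0.049 that passed. Of the 9 genes with the E-box letters 7 rose in the mean of both hairpins, as did 12 of the 24 with a promoter in the table and no E-box there and 8 of the 9 with no promoter in the table. The median changes of these 3 sets were 0.36, 0.23 and 0.40. The share that rose among all genes with the E-box is not given here, and a link between the E-box and the rise was not tested.

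**Figure D3:**
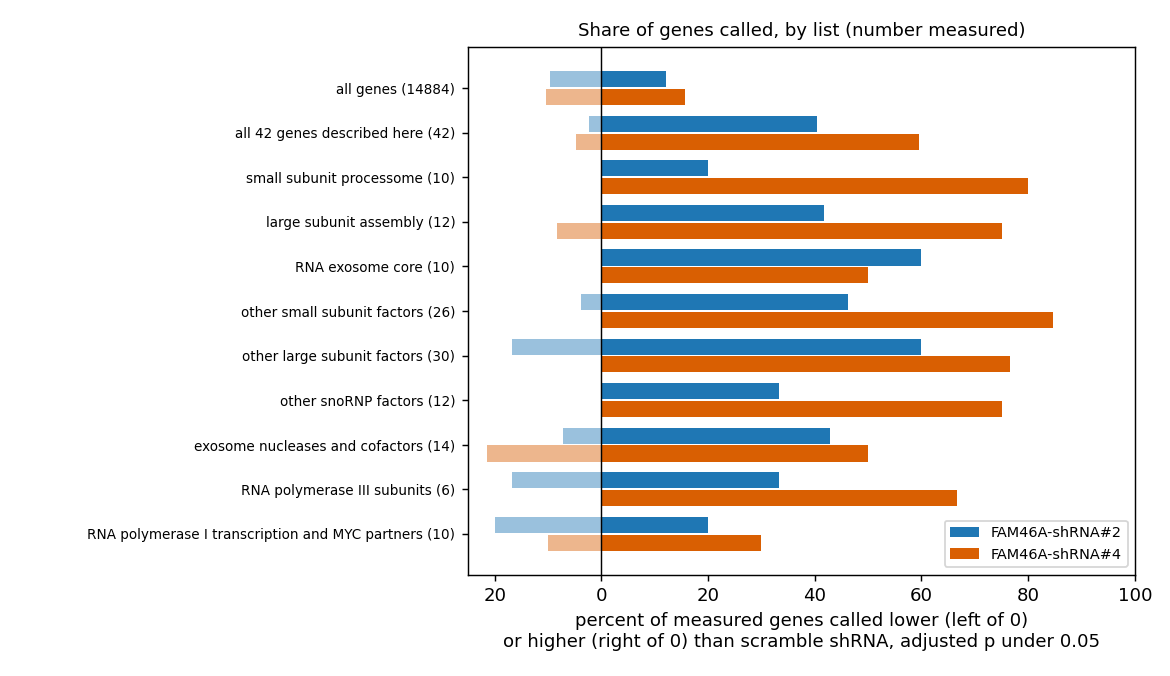
Percent of the measured genes of each list called higher (right of 0) or lower (left of 0, paler) than scramble with shRNA#2 (blue) and shRNA#4 (orange), with the number measured in brackets. Among all genes 12.1% and 15.7% were called higher, and for the other small subunit, large subunit and snoRNP factors the orange bar reaches further right than the blue one (22 against 12, 23 against 18 and 9 against 4 genes).

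Markers of cell identity moved in the same arrays. Of 8 measured markers of colon epithelium 4 fell in the mean of both hairpins (VIL1, KRT20, CDX2 and EPCAM), where 10.6% of all genes were called lower. Of the others, KRT18 rose with shRNA#4 by 0.49 ± 0.12 and had a mean change of 0.30 ± 0.11 that passed with the replicate block and not without it. KRT8, KRT19 and CDX1 had mean changes of 0.13 ± 0.097, -0.0070 ± 0.095 and -0.049 ± 0.060 that did not pass. Of 4 mesenchymal markers VIM and TAGLN rose. TAGLN had changes of -0.23 ± 0.064 with shRNA#2 and 1.11 ± 0.064 with shRNA#4, of which the first passed with the replicate block and not without it. Of 3 immune markers CD68 and LAPTM5, both lysosomal membrane proteins, fell, and neither of 2 endothelial markers passed (limma). Median values of the epithelial list were 0.093 and 0.10 on the scramble arrays and between -0.043 and -0.016 on the hairpin arrays. Those of the mesenchymal list were -0.11 and -0.025 on the scramble arrays, -0.010 and -0.036 with shRNA#2, and 0.15 and 0.13 with shRNA#4. Their part in the changes of the 42 genes was not tested. Since each probe set was centred on its median, which markers are absent cannot be read from these values.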

How the data were processed

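Total RNA of 6 Caco-2 cultures was measured on Affymetrix arrays after labelling as biotinylated sense-strand DNA, per the labels' protocols. The deposited table held values on a log scale, taken here as log2, for 48144 probe sets. The median of every probe set over the 6 arrays lay within 1e-06 of 0, so brightness was lost. For probe set summary, array normalization and log base, the method was not given in the sources used here. Symbols came from the platform annotation: 1 symbol was given for 16098 probe sets, several for 0 and none for 32046. Probe sets of a gene were averaged, which gave 14884 genes.

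limma 3.58.1 in R 4.3.3 fitted the 3 groups together (3 residual and 3.09 prior degrees of freedom). Benjamini-Hochberg adjustment ran over all 14884 genes, with calls at an adjusted p under 0.05. On simulated data with 200 genes changed by 0.5 on the log2 scale and 14884 genes, 97.2% were recovered for the mean of both hairpins, 93.6% for shRNA#2 and 92.5% for shRNA#4, and 5.67%, 6.00% and 5.10% of the calls were false. The simulated arrays were independent, and no gene was made to differ between the hairpins, so that comparison was not assessed. In the data each hairpin called 21.6% or 26.1% of genes against scramble, so the simulated rates need not hold for them. The median change of the 42 genes was smaller than the simulated one, at 0.22 with shRNA#2 and 0.36 with shRNA#4. Recovery of changes of that size was not assessed. Deviations of arrays with the same replicate number correlated over genes, at 0.18 for scramble and shRNA#2, 0.12 for scramble and shRNA#4 and 0.20 for the hairpins. The main fit did not use the replicate numbers, so the calls, SE and adjusted p-values ignore any such pairing unless the block is named. A fit with the number as a block was the alternative.

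All 42 genes were described. Array values were printed mainly for the genes listed by symbol, the 3 largest changes of each role group, the 5 largest differences between hairpins, genes that fell and genes whose probe sets disagreed in sign, and for a few further members. Of each other list the 3 largest changes were named, and of some lists further genes. The genes, role groups and lists were chosen with earlier results of these data known. Promoters came from RefSeq, and motifs were counted with Python 3.11.15. Alternatives covered normalization, centring, the block, the arrays in the fit, the prior, probe set choice, the genes tested, the threshold and leaving out each array.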

Additional observations from a re-analysis of the deposited data

Results flagged for a closer look

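The hairpins differed from each other for 15 of the 42 genes (limma, adjusted p under 0.05 for shRNA#2 minus shRNA#4 over all 14884 genes), against 15.3% of all genes. The difference was -0.78 for UTP18, -0.60 for NOL11, -0.52 for NOL9, -0.49 for RRP12 and -0.48 for RRS1. It was -0.32 for RRP1B, -0.27 for both NOP58 and NOP2, -0.25 for EXOSC6, RRP15 and NOL10, and -0.23 for NOP9. Values were higher with shRNA#2 by 0.28 for WDR12, 0.36 for POLR1F and 0.36 for NOP53. NOL9 and NOL11 kept the call without any 1 of the 6 arrays, and the other 13 lost it without at least 1 of them.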

How the results depend on the processing

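For the mean of both hairpins, the 24 genes named by rule had 288 values over the alternatives at the same threshold, of which 275 kept their direction and side of the threshold, 13 lost significance and 0 reversed, and those 13 came from leaving out 1 array. The 24 were chosen in large part for the size of their change, so they do not stand for all 42 genes. UTP18, NOP10, POLR1H, NOL4 and EXOSC10 among them had no mean call to lose. EXOSC4, EXOSC5, NOL8 and NOL10, whose mean calls ended with alternatives given below, are not among the 24. At an adjusted p under 0.01 the count higher with shRNA#2 was 11. BOP1, NOL6, RRP12 and WDR12 were among the genes that then lost the mean call. The count lower with shRNA#4 was 0 at that threshold (limma, 2 at an unadjusted p under 0.05). Between the hairpins 1 gene was then higher and 3 were lower with shRNA#2. The count lower with shRNA#2 was 2 with quantile normalization and 2 with protein-coding genes only, EXOSC6 being added. Leaving out 1 array gave 11 to 16 genes higher and 1 lower with shRNA#2, 20 to 26 higher and 0 to 2 lower with shRNA#4, and 18 to 25 higher and 1 lower in the mean. Between the hairpins it gave 0 to 3 higher and 3 to 11 lower. A lone array was assumed to vary like the other groups. Counts over all genes are given below for the replicate block alone. The other counts therefore do not show whether these genes lost calls more often than the rest. With the replicate block, 20 genes were higher and 1 lower with shRNA#2, 30 and 2 with shRNA#4, 29 and 1 in the mean, and 3 and 14 between the hairpins. Over all 14884 genes the block also raised the count higher, from 1800 to 2006 with shRNA#2 and from 2331 to 2535 with shRNA#4. In the mean that count went from 2206 to 2434. Between the hairpins the counts over all genes went from 988 to 1153 higher and from 1284 to 1484 lower with shRNA#2. The block added NOL8, NOP16 and RRP1 with shRNA#2, EXOSC7, NOP10, POLR1H, RRP1 and RRP7A with shRNA#4, RRP1 and RRP7A in the mean, and NOP16, RRP36 and RRP7A between the hairpins, where it ended the call of RRP15. It changed no other call of the 42 genes. Quantile normalization ended the mean calls of EXOSC4, EXOSC5 and NOL8, the call of BOP1 with each hairpin and that of RRP15 between the hairpins. The first probe set alone ended the calls of NOL10 with shRNA#4, in the mean and between the hairpins, and that of BOP1 with shRNA#2. The cause of these changes was not tested.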

Other observations

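Subunits of the other RNA polymerases were measured on the same arrays. Of 6 measured RNA polymerase III subunits, which make 5S rRNA and tRNA, 4 rose and 1 fell in the mean of both hairpins (limma). Among all genes 14.8% were called higher and 10.6% lower. The gene that fell was POLR3GL (-0.30 ± 0.077). POLR3G, the variant subunit of proliferating and stem cells, stood at -1.03 and -0.72 on the scramble arrays, 0.034 and 0.21 with shRNA#2, and -0.034 and 0.075 with shRNA#4. Both scramble arrays lay far below the hairpin arrays, and POLR3G rose by 1.0 ± 0.12 with shRNA#2 and 0.90 ± 0.12 with shRNA#4. POLR3B, the second largest subunit, rose by 0.72 ± 0.093 with shRNA#4, and the hairpins differed by -0.53 ± 0.093. POLR3E rose by 0.35 ± 0.063 in the mean. Of 4 measured RNA polymerase II subunits POLR2D rose by 0.25 ± 0.047 and POLR2H fell by 0.24 ± 0.063 in the mean, and POLR2G rose by 0.42 ± 0.065 with shRNA#4 and differed between the hairpins by -0.62 ± 0.065. Of the 2 measured genes listed for the 5S particle and p53 surveillance, CDKN2A rose by 0.25 ± 0.067 with shRNA#4. RPL11 had a mean change of 0.022 ± 0.057 that did not pass (adjusted p 0.857, limma).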
